A study of Arabidopsis thaliana with 80 samples.

Results

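Messenger RNA in rosettes of the Arabidopsis thaliana accession Bon was compared between 2 successive collections of one outdoor experiment, the third (ex3) against the second (ex2). The comparison took every Bon library with either label, 12 of the 80 libraries of the series: 3 ex3 morning, 3 ex3 evening, 3 ex2 morning and 3 ex2 evening libraries, with both times of day given equal weight. Bon is a natural line from southern Spain, as are Moj and Vel, and Col-0 is the laboratory line behind the reference genome. Seeds of all these accessions were sown in pots of peat-reduced substrate at one botanical garden in southern Spain. Each library is a pool of 5 rosettes, taken in mid-morning or in the afternoon, which is called evening here after the libraries' names. Roots were discarded, and so were stalks of plants that had bolted, so the samples hold rosette tissue of plants that may or may not have flowered. The labels name vegetative, inductive and reproductive stages but do not pair ex2 and ex3 with them. They call ex2 and ex3 extractions, so age, weather on the day and RNA extraction cannot be told apart between the collections.

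A rosette that turns to reproduction stops making leaves. Flowering is set off when FT and TSF proteins move from the leaf to the shoot tip, where MADS-box regulators such as SOC1 take over, while FLC holds the switch back until winter cold silences it. In ageing leaves, NAC transcription factors start senescence: chlorophyll is broken down, proteins are degraded, and nitrogen and sugars are exported. Xylem cells build a secondary wall of cellulose, xylan and lignin that stiffens stems and leaf bases.

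Each of 33602 genes has 1 value per library, a log2 expression level that appears to be scaled by gene length and to carry an offset of 1, so differences understate the change of genes with low values. Tests covered the 20880 genes that reached 1 in 3 or more libraries and were made with limma at a Benjamini-Hochberg adjusted p of 0.05. Here "rose" and "fell" mean past that threshold, higher or lower in ex3. One library outside Bon, labelled Moj ex3 morning replicate 1, went against its label: its closest library was Vel ex3 morning replicate 1 (r = 0.984 across genes). Most results against Moj are given with and without it. All 12 Bon libraries were closest to another library of their own group, and 21429 to 22501 genes per library were above 0. The depth behind the values is unknown because no counts are given. P-values measure the spread between pools of plants from one garden. The labelled tissue had its markers: the 23 nuclear photosynthesis genes on the list summed to 21182 to 33069 linear units (2 to the power of the value, minus 1) in ex3 libraries and 24090 to 32901 in ex2 libraries. Of 11 seed markers, 6 were listed at 0 in all 12 libraries, among them the storage protein genes CRA1 and CRU3, as were the root hair genes RHD6, RSL4, PRP3 and EXPA18 among 9 root markers. The root markers summed to 3.52 to 16.0 linear units in ex3 libraries and 5.19 to 22.8 in ex2 libraries. Reads of overlapping genes cannot be told apart, because the library kit does not mark strand. Of the 154 genes named by rule, 34 overlap another annotated gene, PER64, CESA4, CESA8, FLC, VIN3, CHS, TT19, PAO, ABI1, MCM7, CAB1, LHCB6, AMS, AT5G03350 and AT1G27710 among them. Reads of near-identical copies (LTP3 and LTP4, the LHCB1 and LHCB2 genes including CAB1, histones, small heat shock proteins, COR15A and COR15B, KIN1 and KIN2, AOC1 and AOC2) are likewise uncertain.

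Between the collections 9957 genes passed the threshold (47.7%): 4955 rose (23.7% of genes tested) and 5002 fell (24%). Of these, 587 rose by at least 1 log2 unit (2.81%) and 685 fell by as much (3.28%). All 6 ex3 libraries were above all 6 ex2 libraries for 945 genes (4.53%) and below them for 1376 (6.59%). The median difference over all genes was 0.0071 log2 units.

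**Figure D1:**
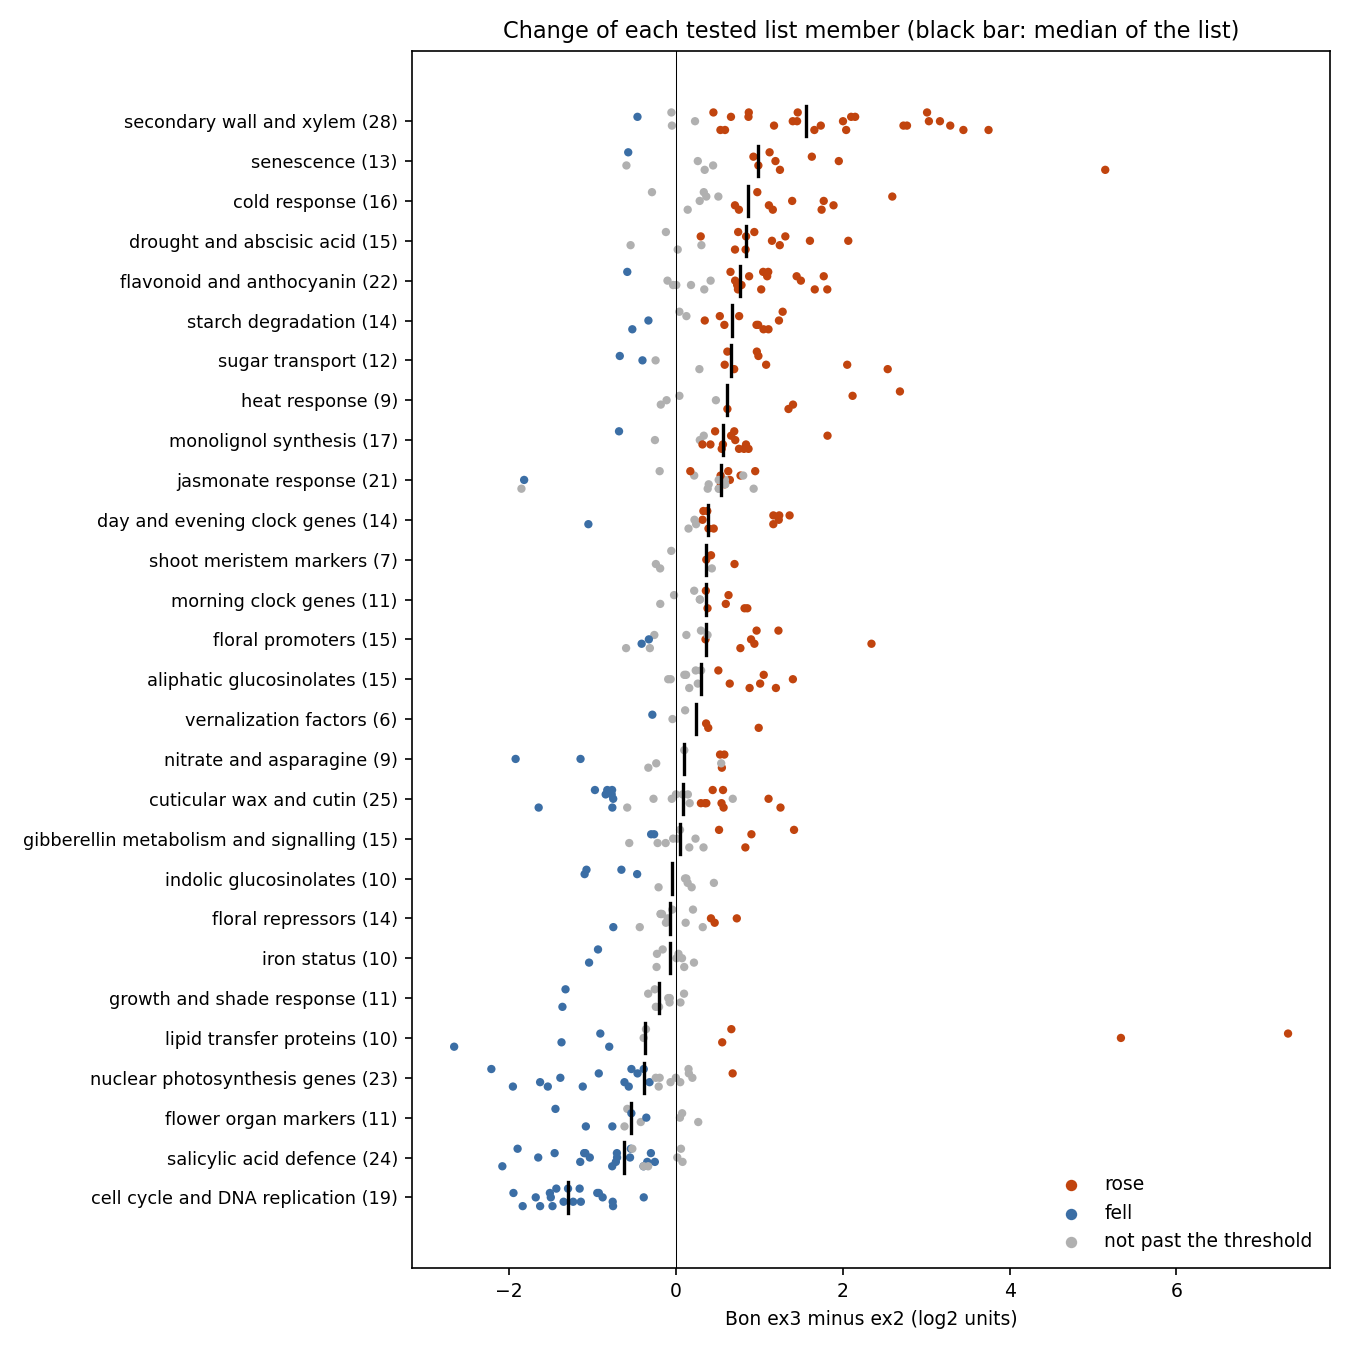
Difference between ex3 and ex2 in Bon for each tested member of 28 gene lists with at least 5 members tested, in log2 units on the horizontal axis (number of members tested in brackets, black bar at the list's median). Secondary wall genes lie highest, with a median of 1.56, and cell cycle genes lowest, with a median of -1.29 and all 19 members among those that fell.

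The genes of the secondary cell wall rose together. Of 28 tested members of the list of 29, 24 rose and 1 fell, with a median difference of 1.56 log2 units, and in 20 of them every ex3 library was above every ex2 library. Their summed linear level was 213 to 473 in ex3 libraries and 53.2 to 97.4 in ex2 libraries. In bulk tissue, more cells of a type and more RNA per cell cannot be told apart. CESA4, a cellulose synthase subunit of the secondary wall, had 4.21, 5.07 and 5.81 log2 units (lowest, median and highest) in ex3 libraries, against 1.19, 1.63 and 2.02 in ex2 libraries. The groups did not overlap, and the difference was 3.45 (SE 0.24, limma adjusted p = 2.5e-16). The other subunits of the same complex, CESA7 and CESA8, rose by 3.29 and 3.03. CTL2, a chitinase-like protein of secondary wall tissue, had 4.19, 5.26 and 5.83 log2 units in ex3 libraries, against 0.47, 1.30 and 2.16 in ex2 libraries. It rose by 3.75 (SE 0.32, limma adjusted p = 6.4e-14), the largest difference on the list.

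Genes for several parts of the wall took part. Xylan synthesis genes rose, with IRX15 at 2.73, IRX9 at 2.15 and IRX10 at 1.46, and so did the fasciclin-like protein gene FLA11 at 3.17 and COBL4, which is needed for ordered cellulose, at 2.77. LAC4 and LAC17, laccases that polymerize lignin, rose by 3.01 and 1.66, and LAC12, a relative outside the list, by 3.43. Of the regulators, NST1 and NST3, NAC switches of fibre walls, rose by 1.45 and 1.74, and their target MYB63, an activator of lignin genes, by 2.04. Of the vessel regulators, VND6 fell by 0.46 and VND7 was at -0.05. VND7 and the xylem proteases XCP1 and XCP2, at -0.05 and 0.23, did not pass the threshold. All other tested members of the list rose, TED6 and XND1 among them. Of 17 genes that make monolignols, the building blocks of lignin, 13 rose and 1 fell (median 0.56). PAL4, a phenylalanine ammonia-lyase at the pathway's entry, had 2.77, 2.96 and 3.45 log2 units in ex3 libraries, against 0.70, 1.17 and 1.61 in ex2 libraries. It rose by 1.82 (SE 0.13, limma adjusted p = 2.5e-16), and CAD4, which acts at the last step, fell by 0.68. Among the 12 largest rises by rule were 3 more genes known or thought to act in walls: IQD10 (3.75), an IQ-domain protein, PER64 (3.77), a peroxidase known for lignin deposition in the root endodermis, and PELPK1 (3.38), a proline-rich cell wall protein.

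**Figure D2:**
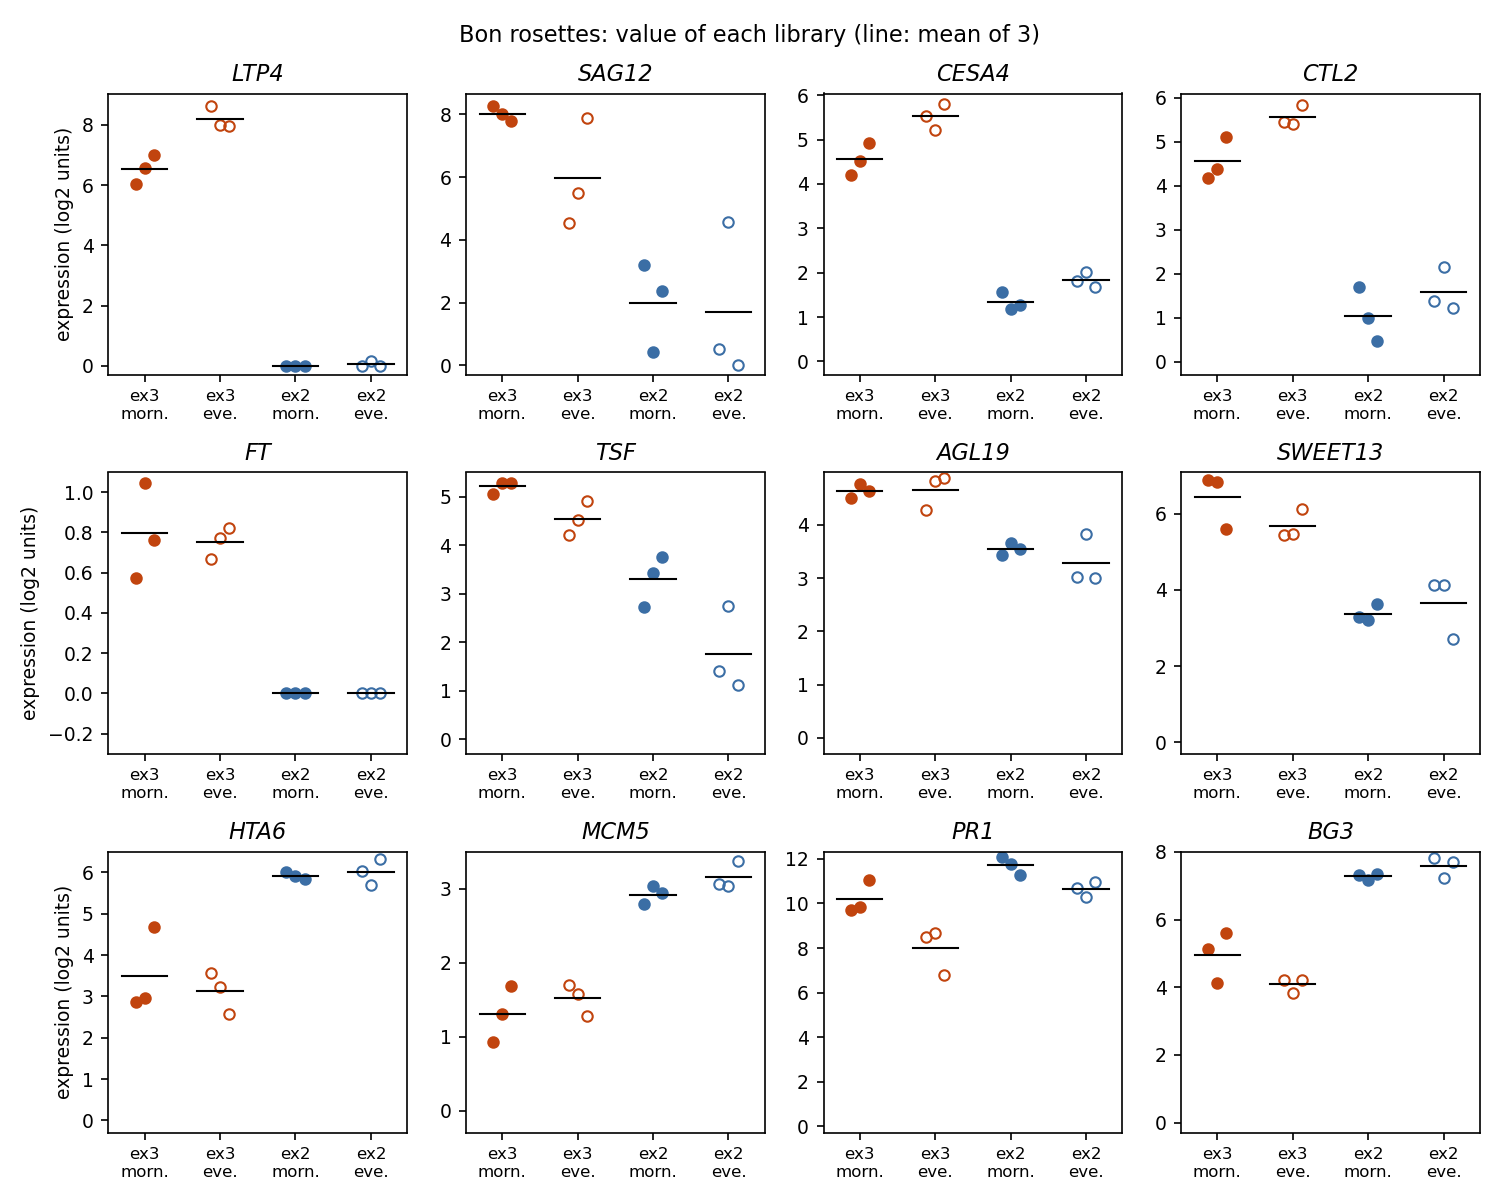
Value of each Bon library in log2 units for 12 genes (red ex3, blue ex2; filled morning, open evening; the line is the mean of 3). LTP4 was listed at 0 in 5 of 6 ex2 libraries and lay at or above 6.04 in all ex3 libraries, whereas SAG12 overlapped by 1 library of each collection.

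The largest rise of any gene named was that of LTP4, a lipid transfer protein secreted to the cell wall. It had 6.04, 7.49 and 8.61 log2 units in ex3 libraries, while 5 ex2 libraries were listed at 0 and the other at 0.16. The limma difference was 7.34 (SE 0.46, adjusted p = 3.1e-18), a fitted value that is no bound because of the zeros. LTP3, its close relative, had 5.24, 6.58 and 7.50 log2 units in ex3 libraries, against 0.00, 0.68 and 3.22 in ex2 libraries, and rose by 5.33 (SE 0.46). In both genes the groups were apart.

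The rest of the family went both ways. Of the 10 list members, 4 rose and 4 fell (median -0.37): LTP5 and LTP7 rose by 0.67 and 0.56, and LTP1, LTP2, LTP6 and the membrane-anchored LTPG1 fell by 0.80, 1.37, 2.66 and 0.91. LTP6 had 1.71, 2.25 and 4.69 log2 units in ex3 libraries, against 4.66, 5.35 and 5.66 in ex2 libraries, and the groups barely overlapped. Genes of the cuticle also went both ways. Of 25 members 9 rose and 8 fell (median 0.08). Some wax genes were among the rises, with CER6, the elongase of very long fatty acids, at 1.25 and CER3, of the alkane branch, at 1.11. The wax exporter ABCG12 and the regulator MYB96 rose by 0.57 and 0.57. Not every wax gene was higher: CER1, also on the list, had a lower mean in ex3. Most cutin genes that passed the threshold were among the falls, with DCR at -1.64, BDG at -0.97, GPAT8 at -0.84, CYP77A6 at -0.82 and GPAT6 at -0.75, and also the epidermal regulators MYB106 at -0.77 and MYB16 at -0.76, while the cutin genes CYP86A2 and GPAT4 rose by 0.55 and 0.30. FAR6, a fatty acid reductase, was listed at 0 in all 6 ex2 libraries and had 2.13, 3.66 and 5.01 log2 units in ex3 libraries (limma adjusted p = 2.3e-13).

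Genes of leaf senescence were higher in ex3. Of 13 members 8 rose and 1 fell (median 0.99). SAG12, a cysteine protease that is a standard marker of senescing leaves, had 4.54, 7.84 and 8.25 log2 units in ex3 libraries, against 0.00, 1.46 and 4.57 in ex2 libraries. The difference was 5.15 (SE 0.69, limma adjusted p = 2.2e-08), and the highest ex2 library, evening replicate 2, lay just above the lowest ex3 library. ORE1 and NAP, NAC factors that start senescence, rose by 1.95 and 1.63. ORE1 had 4.75, 5.45 and 5.97 log2 units in ex3 libraries, against 1.46, 4.08 and 4.20 in ex2 libraries, with no overlap.

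Genes of chlorophyll breakdown rose: NYC1 by 0.99, SGR1 by 1.12, SGR2 by 1.25, PPH by 1.19 and PAO by 0.93. WRKY53, an early senescence regulator, fell by 0.57, and SAG13 (0.45), SAG21 (0.26), WRKY6 (0.35) and DIN1 (-0.59) did not pass the threshold. PGAZAT, a polygalacturonase of cell separation, had 4.17, 5.56 and 7.03 log2 units in ex3 libraries, against 0.00, 0.73 and 3.95 in ex2 libraries, with no overlap (difference 4.51, SE 0.61, limma adjusted p = 2.1e-08).

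Sugar transporters were mostly higher in ex3, while the nitrogen list went both ways. GLN1;4, a cytosolic glutamine synthetase, had 7.96, 8.94 and 9.40 log2 units in ex3 libraries, against 2.87, 5.34 and 7.25 in ex2 libraries, and rose by 3.57 (SE 0.45, limma adjusted p = 4.7e-09) with no overlap. Of 9 genes on the list of nitrate and asparagine metabolism, 3 rose and 2 fell (median 0.10), a share near that of all genes, with GLN1;1 at 0.58, the nitrite reductase NIR1 at -1.14 and the asparagine synthetase ASN2 at -1.92. Of 12 sugar transporters 8 rose and 2 fell (median 0.66). SWEET13, a sucrose exporter, had 5.43, 5.87 and 6.87 log2 units in ex3 libraries, against 2.71, 3.46 and 4.14 in ex2 libraries, and rose by 2.54 (SE 0.23, limma adjusted p = 1e-12) without overlap. Its relatives SWEET15, known from senescing leaves, and SWEET11 and SWEET12, which load the phloem, rose by 2.05, 0.99 and 0.97, and the phloem loader SUC2 by 0.62, while the vacuolar SWEET17 fell by 0.67. Of 14 genes of starch breakdown 10 rose and 2 fell (median 0.67), with GWD1, which starts it by phosphorylating starch, at 1.11 and the amylase BAM1 at 1.28.

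Genes of cell division fell without exception. All 19 members of the list fell, with a median of -1.29, and in 16 of them every ex3 library was below every ex2 library. Their summed linear level was 22.1 to 46.7 in ex3 libraries and 85.7 to 133 in ex2 libraries. MCM5, a subunit of the helicase that opens DNA for replication, had 0.93, 1.44 and 1.70 log2 units in ex3 libraries, against 2.79, 3.03 and 3.38 in ex2 libraries (difference -1.63, SE 0.17, limma adjusted p = 2.6e-11). The largest fall was that of PCNA1, the sliding clamp of DNA polymerase, at -1.95. KNOLLE, a syntaxin that builds the new cell plate, fell by 1.84, CDC20.1, an activator of the anaphase complex, by 1.51, and the mitotic kinase CDKB2;1 by 1.48.

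HTA6, a histone H2A, had 2.56, 3.09 and 4.68 log2 units in ex3 libraries, against 5.69, 5.96 and 6.32 in ex2 libraries, and fell by 2.66 (SE 0.27, limma adjusted p = 2.4e-11) with the groups apart. Of 11 growth and shade response genes, 2 fell, none rose and 9 did not pass the threshold (median -0.20), a share of falls below that of all genes. The 2 were the expansins EXPA1 and EXPA8, which loosen walls, at -1.36 and -1.32. Of 23 nuclear photosynthesis genes 13 fell and 1 rose (median -0.38). The falls were mostly light-harvesting and electron carrier genes: LHCB1.1 by 2.21, the plastocyanin gene PETE1 by 1.95, LHCB2.2 by 1.63 and LHCB6 by 1.53. RCA, the activator of Rubisco, rose by 0.68, and the Calvin cycle genes PRK (0.15), GAPA (-0.21), GAPB (0.05) and SBPASE (0.20) did not pass the threshold. LHB1B1, another LHCB1 copy, was among the 12 largest falls at -2.72 (3.92, 4.21 and 6.37 log2 units in ex3 libraries, against 6.48, 7.24 and 8.39 in ex2 libraries). The normalization gives the top ranks fixed values, so the difference of -2.03 for CAB1, which held ranks 2 to 105 in ex3 libraries and 2 to 4 in ex2 libraries, can be read only as a change of rank. LHCB1.1 held ranks 14 to 2370 in ex3 and 8 to 86 in ex2 libraries, and LHCB2.2 22 to 2144 and 14 to 252. The limit therefore touches the highest values of these genes, and the size of their differences is less certain.

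Genes for several proteins of secreted families were also among the largest falls. GER3, a germin-like protein of the cell wall, had 2.15, 3.36 and 4.52 log2 units in ex3 libraries, against 5.40, 6.58 and 8.49 in ex2 libraries, and fell by 3.32 (SE 0.42, limma adjusted p = 5e-09). AT2G10940, a protein of the lipid transfer and protease inhibitor superfamily, fell by 3.14 and AT3G16670, of the pollen Ole e 1 family, by 2.63. In these 3 genes no ex3 library reached the lowest ex2 library. GRP9, a glycine-rich protein, fell by 2.78 with overlapping groups. AT5G44570, an uncharacterized gene, fell by 2.79, and AT1G27710, a glycine-rich protein, by 2.59.

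Of 15 tested floral promoters on a list of 17, 7 rose and 2 fell (median 0.36). The falls, of SPL9 and SPL15, were lost without ex2 morning replicate 3, without ex2 evening replicate 3 or without ex3 morning replicate 2. FT, the mobile flowering signal, was listed at 0 in all 6 ex2 libraries and had 0.57, 0.77 and 1.04 log2 units in ex3 libraries (limma adjusted p = 4.8e-10), a low level with complete separation. Its twin TSF had 4.20, 4.99 and 5.29 log2 units in ex3 libraries, against 1.12, 2.74 and 3.76 in ex2 libraries, and rose by 2.34 (SE 0.33, limma adjusted p = 5.2e-08). The MADS-box genes AGL19, SOC1 and FUL rose by 1.23, 0.90 and 0.97, as did FD, the partner of FT at the shoot tip, by 0.94, and CO, which activates FT in long days, by 0.36.

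The floral identity genes did not follow. LFY was under the filter, with at most 0.31 in ex3 libraries and 0.65 in ex2 libraries. AP1 was at -0.60 (SE 0.29, limma adjusted p = 0.08). Of 11 tested flower organ markers on a list of 15, 5 fell and none rose (median -0.53), the clearest being the anther genes A9 at -1.44 and AMS at -1.08. The number of falls was 2, with 1 rise, without ex2 morning replicate 3, 3 without ex2 evening replicate 2 or without ex3 morning replicates 1 or 2, and 8 without ex3 morning replicate 3. Their summed linear level was 4.05 to 20.6 in ex3 libraries and 6.87 to 24.5 in ex2 libraries, so both collections held low levels that overlapped. At ex1 it had been 0.62 to 1.85, so these markers were already higher by ex2. Of 7 tested shoot meristem markers, 3 rose (median 0.37), the KNOX genes KNAT1 at 0.70, KNAT2 at 0.37 and KNAT6 at 0.42, and 1 did so without ex2 morning replicate 2 or 3, ex2 evening replicate 1 or 3, ex3 morning replicate 3 or ex3 evening replicate 3. The summed linear level of the meristem list was 41.4 to 62.1 in ex3 libraries and 29.4 to 48.9 in ex2 libraries. CLV3 and WUS were under the filter. The part of these tissues in the results above was not tested.

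Of 14 tested floral repressors 3 rose and 1 fell (median -0.07), shares below those of all genes (23.7% rose and 24% fell). FLC, the repressor that vernalization silences, had 2.43, 2.66 and 3.33 log2 units in ex3 libraries, against 3.18, 3.50 and 4.06 in ex2 libraries. It fell by 0.75 (SE 0.11, limma adjusted p = 3.2e-07), with a small overlap, and its median had been 5.42 at ex1. SVP, which acts with FLC, rose by 0.47, TFL1, which keeps the shoot tip vegetative, by 0.73 and TOE1, an AP2-type repressor, by 0.42. Of 6 vernalization factors 3 rose and 1 fell (median 0.24). VIN3, which starts the silencing of FLC in the cold, had 1.96, 3.05 and 3.61 log2 units in ex3 libraries, against 1.32, 1.89 and 2.83 in ex2 libraries, and rose by 0.99 (SE 0.16, limma adjusted p = 9.8e-07). Its relative VEL1 rose by 0.39 and VRN1 by 0.36, VRN5 fell by 0.28, and VRN2 was at -0.04. Of 15 tested genes of gibberellin, a hormone that promotes bolting, 4 rose and 2 fell (median 0.05). The share of rises was near that of all genes, and the share of falls was below that of all genes. The synthesis gene GA20OX1 rose by 0.83, the receptors GID1B and GID1C by 0.91 and 0.52, and GA2OX2, which inactivates the hormone, by 1.42. The 2 falls, of GA2OX1 and RGL2, were both lost without ex2 morning replicate 2 or 3, ex2 evening replicate 3, ex3 morning replicate 2, or ex3 evening replicate 1 or 2.

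Salicylic acid defence was lower in ex3. Of 24 genes 18 fell and none rose (median -0.63). PR1, the classic marker of this response, had 6.78, 9.19 and 11.1 log2 units in ex3 libraries, against 10.3, 11.1 and 12.1 in ex2 libraries, and fell by 2.08 (SE 0.51, limma adjusted p = 0.0007), with the 3 ex3 evening libraries below all others. PR1 held ranks 9 to 801 in ex3 and 3 to 24 in ex2 libraries. The normalization fixes values at the top ranks, so the size of this fall is less certain. ICS1, which makes salicylic acid, had 2.70, 3.35 and 3.86 log2 units in ex3 libraries, against 4.64, 4.87 and 5.01 in ex2 libraries, and fell by 1.45 (SE 0.19, limma adjusted p = 1.9e-08) without overlap. FMO1 and SARD4, which make the immune signal derived from pipecolic acid, fell by 1.90 and 1.15, NIMIN1, an NPR1 partner, by 1.65, and CBP60G, an activator of ICS1, by 1.1.

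The exceptions were genes that did not pass the threshold: PR2 (0.08), the receptor gene NPR1 (0.06), SARD1 (0.02), ALD1 (-0.33), WRKY70 (-0.52) and WRKY54 (-0.39). Large falls outside the list had a similar course. BG3, a glucanase of the PR2 family, had 3.83, 4.22 and 5.60 log2 units in ex3 libraries, against 7.18, 7.33 and 7.81 in ex2 libraries, and fell by 2.91 (SE 0.27, limma adjusted p = 1.5e-12). The lectin gene AT5G03350 fell by 3.53 and ARD3, an enzyme of methionine recycling, by 2.66. At ex1 the medians of PR1, BG3, ARD3 and FMO1 had been 3.71, 1.24, 0.00 and 0.00 log2 units, so these genes were highest in the middle of the 3 collections.

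Of 21 jasmonate genes 8 rose and 1 fell, the storage protein gene VSP1 at -1.82 (median 0.54), but the number of rises depended on single libraries. It was 3 without ex3 evening replicate 1, 4 without ex2 evening replicate 2 or without ex3 morning replicate 1, 5 without ex2 evening replicate 3 and 12 without ex3 evening replicate 3. JAR1, which makes the active hormone, and AOS, at the start of its synthesis, rose by 0.54 and 0.65.

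Genes of cold and drought protection rose. Of 16 cold response genes 10 rose and none fell (median 0.87). GOLS3, which makes galactinol for protective sugars, had 4.17, 5.66 and 7.54 log2 units in ex3 libraries, against 1.68, 3.11 and 4.43 in ex2 libraries, and rose by 2.59 (SE 0.31, limma adjusted p = 1.6e-09), with 1 ex3 library below the highest ex2 library. COR47, a dehydrin, had 8.65, 9.31 and 9.60 log2 units in ex3 libraries, against 6.57, 7.50 and 8.10 in ex2 libraries, and rose by 1.75 without overlap. The regulators CBF2 and CBF3 rose by 1.12 and 1.39, while CBF1 (0.14), COR15A (0.51) and KIN1 (0.29) did not pass the threshold.

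Of 15 drought and abscisic acid genes 11 rose and none fell (median 0.84). RD20, a caleosin, had 6.16, 6.76 and 7.52 log2 units in ex3 libraries, against 3.51, 4.90 and 5.45 in ex2 libraries, and rose by 2.07 (SE 0.24, limma adjusted p = 7.3e-10) without overlap. The regulator HB7 rose by 1.61, the phosphatases HAI1 and ABI1, which switch abscisic acid signalling off, by 1.25 and 0.94, and NCED3, which makes the hormone, by 0.71. Of 9 tested heat response genes 5 rose and none fell (median 0.62). HSP17.6II, a small heat shock protein, had 1.34, 3.21 and 4.04 log2 units in ex3 libraries, against 0.11, 0.39 and 0.61 in ex2 libraries, and rose by 2.69 (SE 0.40, limma adjusted p = 2e-07). The heat factors HSFA2 (-0.18) and HSFA7A (-0.11) did not pass the threshold. Of 10 tested iron genes 2 fell and none rose (median -0.07), a share of falls below that of all genes. The ferritin gene FER3 fell by 1.04 and NAS4, of nicotianamine synthesis, by 0.93.

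The lists of protective metabolites differed in their counts. Of 22 flavonoid and anthocyanin genes 15 rose and 1 fell (median 0.77). CHS, the entry enzyme, had 7.56, 8.99 and 11.2 log2 units in ex3 libraries, against 6.11, 8.27 and 10.0 in ex2 libraries, and rose by 1.02 (SE 0.20, limma adjusted p = 2.3e-05), with overlapping groups. Within the evening and within the morning, every ex3 library was above every ex2 library. The anthocyanin genes TT19, TT7 and DFR rose by 1.82, 1.77 and 1.67 and the regulators PAP1 and PAP2 by 0.88 and 1.05, whereas MYB12, MYB11 and MYB111, which drive flavonols, were between -0.10 and 0.34 and did not pass the threshold. Of 15 tested genes of aliphatic glucosinolates, the mustard oil precursors made from methionine, 7 rose and none fell (median 0.30), with BCAT4, MAM1 and CYP79F1, of the first steps, at 1.40, 1.2 and 1.05 and AOP2, which modifies the side chain, at 1.01. Their regulators MYB28 (-0.09), MYB29 (0.10) and MYB76 (0.24) did not pass the threshold. Of 10 genes of indolic glucosinolates and breakdown none rose and 4 fell (median -0.05). The clearest falls were those of TGG1 and TGG2, the myrosinases that break glucosinolates down, by 1.09 and 1.07, and TGG1 had 8.20, 8.66 and 9.49 log2 units in ex3 libraries, against 9.62, 9.84 and 10.0 in ex2 libraries. The other falls were those of MYB34, lost with an offset of 5, and SOT16, lost in 6 settings that left out 1 library. A fall of indolic glucosinolate synthesis is therefore not shown.

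Clock genes were mostly higher in ex3. Of 11 morning genes 6 rose and none fell (median 0.36), with CCA1, a core repressor, at 0.82 (SE 0.13), its partner LHY at 0.60 and RVE1, which links the clock to auxin, at 0.86. Of 14 day and evening genes 10 rose and 1 fell (median 0.38): FKF1, a blue light receptor, rose by 1.36, PRR5 by 1.17 and the cold-responsive COR27 and COR28 by 1.23 and 1.24, while CHE, a repressor of CCA1, fell by 1.05. GI and TOC1 were at 0.24 (SE 0.16, limma adjusted p = 0.21) and 0.15 (SE 0.09, limma adjusted p = 0.16). The single seed marker that was tested, FUS3, was listed at 0 in all 12 Bon libraries, and of 2 tested root markers PYK10 fell by 1.36 and NRT2.1 was at 0.23.

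The change was then compared between the times of day. In the evening 8122 genes passed the threshold (38.9%), 4005 of them rises (19.2%) and 4117 falls (19.7%), and in the morning 6157 (29.5%), 3017 rises (14.4%) and 3140 falls (15%). The difference between the evening change and the morning change was itself past the threshold for 1004 genes (4.81%), 482 positive (2.31%) and 522 negative (2.5%). This number rested on single libraries: it was 432 without ex2 evening replicate 3 and 1562 without ex2 evening replicate 2.

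**Figure D3:**
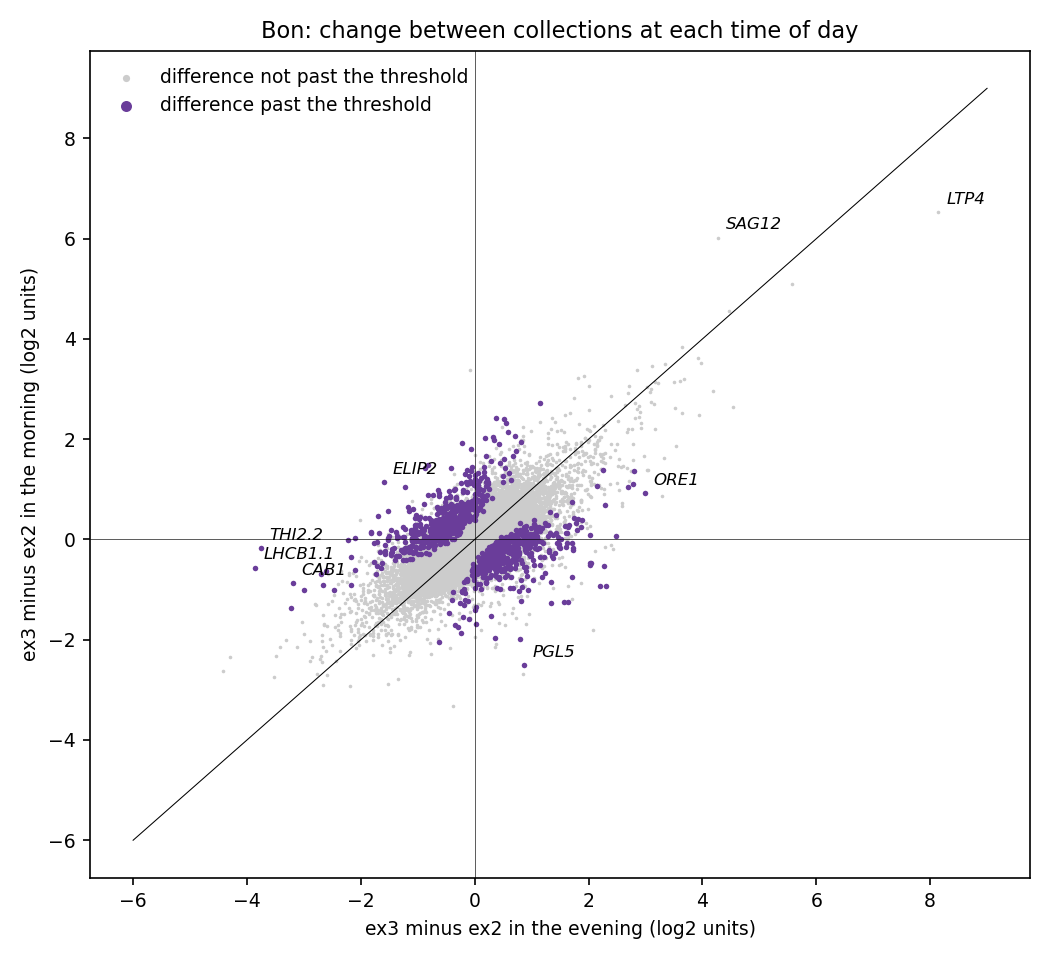
Change between ex3 and ex2 in the evening (horizontal) against the change in the morning (vertical) for 20880 genes, in log2 units, with the line of equal change. The 1004 genes whose evening change minus morning change passed the threshold are in purple, and LHCB1.1 lies at -3.86 in the evening and -0.56 in the morning.

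The fall of a few light-harvesting genes was larger in the evening than in the morning. LHCB1.1 had 6.16, 5.48 and 5.61 log2 units in ex3 evening libraries and 9.68, 9.16 and 10.0 in ex2 evening libraries, against 10.5, 10.07 and 10.7 in ex3 morning libraries and 11.17, 10.97 and 10.81 in ex2 morning libraries. The evening change minus the morning change was -3.30 (SE 0.46, limma adjusted p = 8.1e-06). LHCB1.1 and LHCB2.2 reached top ranks, where the normalization fixes the values, so the size of their differences is less certain. Among nuclear photosynthesis genes 4 had negative differences past the threshold and none a positive one, the others being LHCB2.1 at -2.22, LHCB2.2 at -1.98 and the Calvin cycle gene GAPA at -1.05. For the other 8 LHCA and LHCB genes on the list the difference lay between -0.97 and 0.33 and did not pass. THI2.2, a thionin, had 1.22, 0.99 and 1.1 log2 units in ex3 evening libraries and 4.69, 4.58 and 5.32 in ex2 evening libraries, and in the morning 4.57, 4.33 and 5.64 in ex3 against 5.30, 5.37 and 4.40 in ex2. Its fall was thus seen in the evening, and the difference was -3.58 (SE 0.69, limma adjusted p = 0.0011). ELIP2, a protein that protects against strong light, changed by -1.59 in the evening and 1.14 in the morning (difference -2.73, limma adjusted p = 0.00093).

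Monolignol genes rose mainly in the evening. Of 17, 9 had a positive difference past the threshold and none a negative one (median 0.87), and 13 rose in the evening, against 6 in the morning. CAD5 had the largest, at 1.47, and 4CL1, which activates the acids of the pathway, changed by 1.12 in the evening and -0.02 in the morning (difference 1.15, limma adjusted p = 0.00011). In the secondary wall list 22 members rose in the evening and 22 in the morning, and 1 difference passed the threshold, that of TED6 at -2.05. ORE1 changed by 2.98 in the evening and 0.92 in the morning (difference 2.06, limma adjusted p = 0.0077). AT4G27450, annotated as an aluminium-induced protein, had means of 4.02 log2 units in ex3 evening and 1.74 in ex2 evening libraries, against 4.78 in ex3 morning and 5.32 in ex2 morning libraries (difference 2.81, SE 0.47, limma adjusted p = 0.00017). PGL5, a phosphogluconolactonase, had the largest positive difference, 3.38 (SE 0.96, limma adjusted p = 0.029), but its ex3 evening values were 5.10, 0.32 and 0.08 log2 units, and the difference was 1.75 without ex3 evening replicate 1 and 2.39 without ex2 morning replicate 1, neither past the threshold. It also missed the threshold without ex2 evening replicate 3, ex3 morning replicate 1 or ex3 morning replicate 2, at 3.29, 3.41 and 3.27.

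The change in Bon was last set against the change between the same collections in the other accessions, which had 12 libraries each in Moj and Col-0 and 11 in Vel. These 3 comparisons share the Bon libraries. The Bon change minus the Vel change passed the threshold for 5219 genes (25%), 2419 positive (11.6%) and 2800 negative (13.4%). Against Col-0 the number was 5067 (24.3%), 2208 positive (10.6%) and 2859 negative (13.7%). Against Moj it was 455 (2.18%), 288 positive (1.38%) and 167 negative (0.8%), and without that library 296, 150 positive and 146 negative. The number against Moj was 225 without Bon ex2 evening replicate 3 and 924 without Bon ex2 evening replicate 2.

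**Figure D4:**
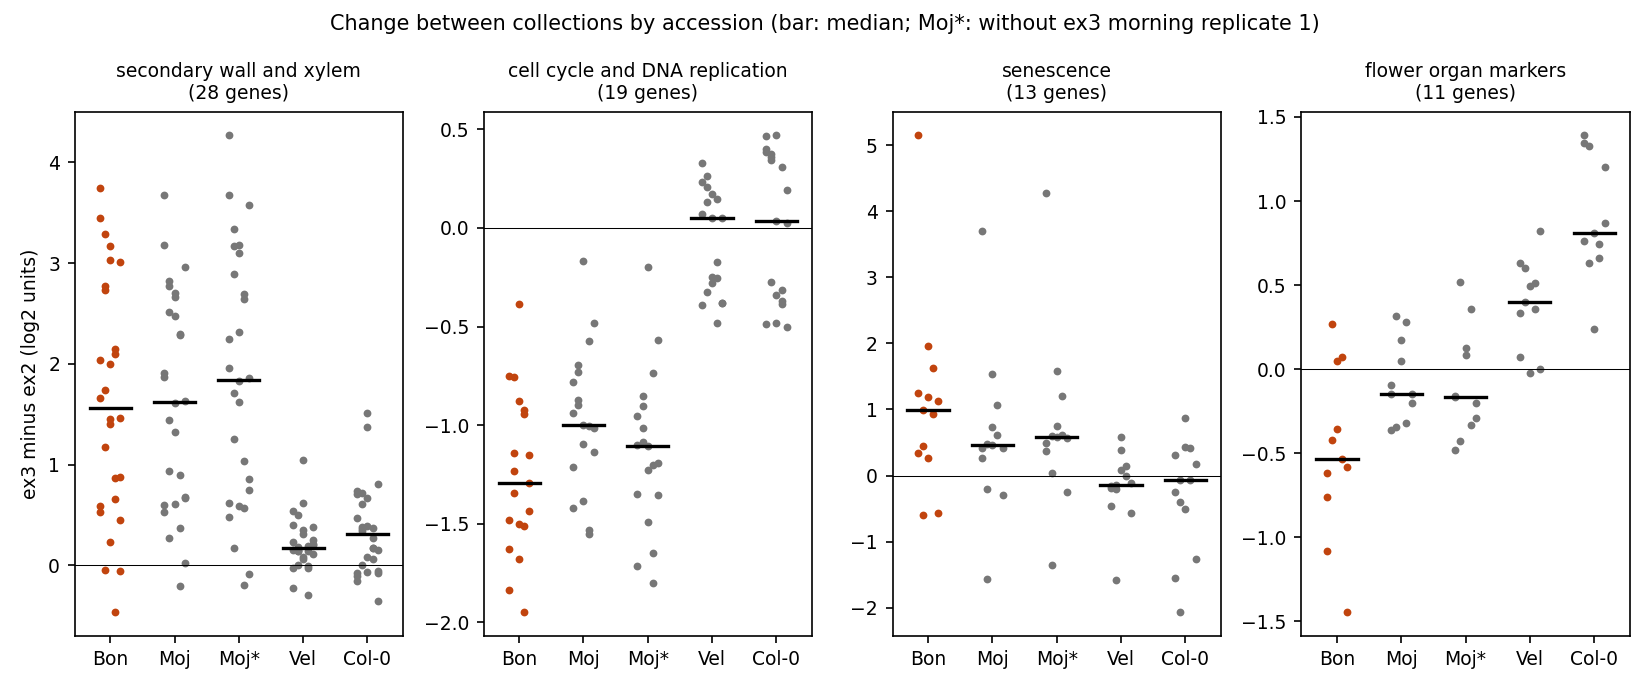
Change between ex3 and ex2 (log2 units, vertical) of each tested member of 4 gene lists in Bon, Moj, Moj without ex3 morning replicate 1 (Moj*), Vel and Col-0, with the median as a bar. Secondary wall genes have medians of 1.56 in Bon, 1.62 in Moj, 0.17 in Vel and 0.31 in Col-0, and cell cycle genes -1.29, -1.0, 0.05 and 0.03.

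The wall and cell cycle changes set Bon apart from Vel and Col-0. Of 28 secondary wall genes, 21 had a larger change in Bon than in Vel and 1 a smaller one, and the same numbers held against Col-0, with median differences of 1.37 and 1.44. Against Moj none differed past the threshold, with or without the doubted library, and the median difference was 0.03 with it and -0.19 without it. Only 2.18% of all genes differed from Moj, so a count of none in a list of this size is near that share. The summed linear level of the list was 213 to 473 in Bon ex3 libraries, 101 to 551 in Moj ex3 libraries, 71.9 to 88.3 in Vel ex3 libraries and 68.1 to 89.3 in Col-0 ex3 libraries. CESA4 changed by 3.45 in Bon and by 0.23 in Vel and 0.47 in Col-0, differences of 3.22 (limma adjusted p = 6.3e-09) and 2.97 (limma adjusted p = 1.5e-08). Its difference from Moj was 0.27 (limma adjusted p = 0.74) with the doubted library and -0.23 (SE 0.23, limma adjusted p = 0.705) without it, so the sign turned.

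Of 19 cell cycle genes 18 had a more negative change in Bon than in Vel, and 18 than in Col-0, with median differences of -1.20 and -1.32. None differed from Moj past the threshold, with or without the doubted library (median difference -0.30 with it and -0.15 without it). That count is near the share of all genes that differed from Moj, 2.18%. MCM5 changed by -1.63 in Bon, -0.39 in Vel and -0.49 in Col-0. Their summed level was 22.1 to 46.7 in Bon ex3 libraries, 42.2 to 78.7 in Vel and 56.8 to 117 in Col-0.

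Senescence genes had a larger change in Bon than in Vel in 8 of 13 cases and than in Col-0 in 10, with none the other way. None differed from Moj past the threshold, with or without the doubted library, which is again near the share of all genes (2.18%). SAG12 changed by 5.15 in Bon, -0.46 in Vel and -1.55 in Col-0, differences of 5.60 (SE 1.01, limma adjusted p = 6.6e-05) and 6.69 (SE 0.98, limma adjusted p = 1.7e-06). LTP4 changed by 7.34 in Bon, 2.04 in Vel and 1.43 in Col-0, with differences of 5.30 and 5.91. In Moj it changed by 7.75, or 8.60 without the doubted library, and LTP3 by 5.52, or 5.89. Neither gene differed from Moj past the threshold. FAR6 changed by 4.40 in Moj, or 5.08 without that library. Its Bon change was then smaller by 1.49 (SE 0.27, limma adjusted p = 0.00071). PGAZAT had differences of 5.69 from Vel and 5.57 from Col-0. Its difference from Moj was 3.34 (limma adjusted p = 0.022), and 3.02 (limma adjusted p = 0.06) without the doubted library.

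For flower organ markers the change in Bon was more negative than in Vel for 8 of 11 and than in Col-0 for 9, with none the other way, and their median change was -0.53 in Bon, 0.40 in Vel and 0.81 in Col-0. Their summed level in Col-0 was 7.25 to 44.3 in ex3 libraries and 3.64 to 7.06 in ex2 libraries. In Vel it was 2.25 to 8.90 in ex3 and 0.77 to 2.35 in ex2 libraries. Bon started higher, at 6.87 to 24.5 in ex2 libraries, so these differences also hold a difference in ex2 level. Against Moj 1 differed, A9 at -1.24 (limma adjusted p = 0.022, and 0.036 without the doubted library). AP1 changed by -0.60 in Bon, 1.14 in Vel and 1.52 in Col-0, differences of -1.74 (limma adjusted p = 0.0017) and -2.12 (limma adjusted p = 0.00012).

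Of 15 floral promoters, 1 had a larger and 5 a smaller change in Bon than in Vel, and 4 a larger and 4 a smaller change than in Col-0. FUL and SOC1 changed by 0.97 and 0.90 in Bon, 1.26 and 1.01 in Vel, and 0.99 and 1.08 in Col-0, and none of these differences passed the threshold (the SE of each was at most 0.23). TSF had a larger change in Bon than in Vel (1.75, limma adjusted p = 0.0054) and Col-0 (2.07, limma adjusted p = 0.00079). FLC fell by 0.75 in Bon, against a change of -0.09 in Col-0 (difference -0.66, limma adjusted p = 0.0019) and -0.66 in Vel (difference -0.09, SE 0.16). In Moj FLC changed by -1.03, or -0.94 without the doubted library, and the difference from Bon did not pass the threshold either way. In salicylic acid defence 1 of 24 genes differed from Vel, negative, and 8 differed from Col-0, 7 positive and 1 negative. PR1 changed by -2.08 in Bon and -4.60 in Col-0, a difference of 2.52 (limma adjusted p = 0.0086).

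The differences from Moj were few. GLYI4, a glyoxalase, had 2.95, 4.29 and 5.75 log2 units in Bon ex3 libraries, against 0.45, 1.23 and 4.21 in Bon ex2 libraries, and its change was 3.14 larger than in Moj (SE 0.66, limma adjusted p = 0.0047), or 2.70 (limma adjusted p = 0.017) without the doubted library. BG3 changed by -2.91 in Bon and -0.87 in Moj, a difference of -2.04 (limma adjusted p = 0.0014), or -1.86 (limma adjusted p = 0.0045) without that library. Of the drought list 3 members had a larger change in Bon than in Moj, and 1 did so without the doubted library, ABI1 with 0.62 (limma adjusted p = 0.034). Of the heat list 2 did, with or without that library, HSP17.6II at 2.02 and HSP17.6C at 1.99 with it, and at 2.21 and 1.98 without it.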

How the data were processed

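Polyadenylated RNA from rosettes was sequenced from TruSeq v2 libraries, per the labels' protocols. FastQC, HISAT2, StringTie and the TAIR10 build are named, without a version, in the submitters' processing notes. The authors deposited one table of log2 values for 33602 genes. The offset of 1, the length scaling and the quantile normalization are read from the values and are not stated. The values were used as deposited, with no further transformation. No counts are given, so the depth per library and its counting error are unknown. All 279 organelle genes are listed at 0, and 32835 identifiers matched the reference annotation, used for names only.

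One mean was fitted for each of 28 groups over 80 libraries with limma 3.58.1 in R 4.3.3 (empirical Bayes moderation with a trend, 52 residual degrees of freedom before moderation), and p-values were two-sided and adjusted by the Benjamini-Hochberg method over 20880 genes. Tables were made with pandas 2.3.3 and numpy 2.4.6 under Python 3.11.15, figures with matplotlib 3.10.9, and the fit was tested on simulated data. The 30 gene lists hold 453 members, of which 419 were tested. Genes were named as the 12 largest rises and 12 largest falls with a mean of at least 5 linear units in the higher collection and one sign at both times, without pseudogenes, transposable elements and organelle genes, as the 5 largest differences in each direction in each comparison of changes, as up to 4 members of each list by adjusted p, and as 16 genes whatever their result. Other list members are named as examples, chosen after their values were seen. The members and lists were chosen with earlier results of these data known. Filters, offsets, moderation, centring, the libraries in the fit, a replicate term and the omission of single libraries were varied.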

Additional observations from a re-analysis of the deposited data

Results flagged for a closer look

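The change between ex3 and ex2 in Bon differed between evening and morning, by limma's test of the difference, for 1004 genes. Among the 10 named, the evening change minus the morning change was 3.38 for PGL5, 3.23 for ST2A, 3.12 for MYB113, 2.88 for AT3G15450 and 2.81 for AT4G27450. It was -3.58 for THI2.2, -3.30 for LHCB1.1, -2.73 for ELIP2, -2.32 for CAB1 and -2.31 for AT4G18422. CAB1 and LHCB1.1 reached top ranks, where the normalization fixes the values. The CAB1 difference can be read only as a change of rank, and it missed the threshold in 2 settings. The size of the LHCB1.1 difference is less certain. MYB113, an anthocyanin regulator, averaged 3.0 log2 units in ex3 evening and 0.80 in ex2 evening libraries, against 1.45 in ex3 morning and 2.37 in ex2 morning libraries.

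The Bon change differed from the Moj change for 455 genes. The difference was 3.34 for PGAZAT, 3.14 for GLYI4, 3.10 for DIN2, 2.89 for DOX1 and 2.85 for UPI, and -3.96 for AT5G42530, -2.28 for AT5G45428, -2.10 for AT1G27710, -2.04 for BG3 and -1.90 for AT3G10090. Without the library labelled Moj ex3 morning replicate 1, the limma adjusted p was 0.0949 for DIN2 (2.41), 0.117 for DOX1 (2.47) and 0.114 for UPI (2.48), and 0.0601 for PGAZAT (3.02), so these 4 no longer passed. In that analysis AT5G42530 was at -2.81, AT5G45428 at -2.04, AT1G27710 at -2.11 and AT3G10090 at -1.17, all past the threshold. AT5G42530 held ranks 7 to 19 in Bon ex3 libraries and 5 to 6 in Bon ex2 libraries, where the normalization fixes the values, so its difference can be read only as a change of rank.

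The Bon change differed from the Vel change for 5219 genes. The difference was 5.69 for PGAZAT, 5.60 for SAG12, 5.30 for LTP4, 4.64 for AT4G25670 and 3.95 for PER64, and -4.03 for AT2G20870, -3.69 for AT5G22430, -3.64 for GER3, -3.59 for VSP1 and -3.45 for LTP6. AT4G25670 missed the threshold without Bon ex2 evening replicate 3 or without Vel ex2 morning replicate 1.

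The Bon change differed from the Col-0 change for 5067 genes. The difference was 6.69 for SAG12, 5.91 for LTP4, 5.57 for PGAZAT, 5.40 for AT4G25670 and 4.88 for PDF1.3, and -4.80 for AT5G44540, -4.65 for AT2G20870, -4.51 for AT5G22430, -4.26 for AT1G27710 and -4.00 for VSP1. Groups of 3 libraries were not examined for single values that stand apart.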

How the results depend on the processing

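No named gene reversed, under any setting tried, in the comparison that named it. Some other values changed sign. The CESA4 difference from Moj did so without the doubted library. Across settings the median Bon change was -1.29 to 0.27 for flower organ markers and -0.03 to 0.51 for shoot meristem markers. The number of members tested also varied with the filter. The upper end for flower organ markers equals the highest value of any single member in the main fit, 0.27. It can thus come from a filter that kept few members, and need not mean that the list changed sign. Without one library at a time, the number of genes past the threshold was 8654 to 10180 between the collections, 4272 to 6181 in the morning and 5400 to 8600 in the evening (rises 2539 to 4220). The evening change minus the morning change gave 432 to 1562 genes (193 to 738 positive, 239 to 824 negative). The number was 225 to 924 against Moj (135 to 531 positive, 90 to 393 negative), 3767 to 6113 against Vel and 3608 to 5968 against Col-0. The lowest of most of these came without Bon ex2 evening replicate 3 and the highest without Bon ex2 evening replicate 2. An offset of 0.1 gave 2538 genes changed by at least 1 log2 unit and an offset of 5 gave 498, and 185 positive differences from Moj with an offset of 0.1. With only the Bon ex2 and ex3 libraries in the fit, 333 genes differed between the times of day (167 positive, 166 negative), and with only the 2 accessions 151 differed from Moj (71 positive, 80 negative). Without the library Moj ex3 morning replicate 1, 296 differed from Moj (150 positive, 146 negative) and 4222 genes rose in the evening. The cause was not tested. Of 129 named genes called between the collections, 121 were called under every setting and 8 were not (CRC, KNAT2, KNAT6, MYB34, SEP3, SOT16, TFL1 and VSP1). The same held for 4 of 10 between times of day (AT4G27450, ELIP2, LHCB1.1 and THI2.2), 1 of 10 against Moj (BG3), 9 of 10 against Vel (all but AT4G25670) and 9 of 10 against Col-0 (all but PDF1.3). Deviations of same-numbered libraries correlated at -0.24 to 0.12 in the morning and 0.09 to 0.19 in the evening, with 3 of 6 above 0.1. They were not compared with differently numbered libraries, so whether replicate numbers pair the libraries was not tested. A replicate block gave 10014 genes between the collections, 6229 in the morning, 8176 in the evening and 1068 between times of day. It gave 467 against Moj, 5139 against Vel and 5104 against Col-0. Depth is unknown, so the precision of low values cannot be given.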

Other observations

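Protein families, taken from the annotated product names after values had been seen and given without a test of the family, extend the picture of Bon between ex3 and ex2. Of 316 genes for ribosomal proteins, which make up the machinery of protein synthesis, 276 fell and 9 rose, with a median of -0.79 log2 units (all tested genes 0.0071), and in 160 every ex3 library was below every ex2 library. Among all tested genes 23.7% rose and 24% fell, and in 6.59% every ex3 library was below every ex2 library. The median change of the same genes was -0.48 in Moj, -0.08 in Vel and -0.17 in Col-0. The Moj value includes the doubted library, and none was computed without it. Of 44 histone genes 29 fell and 7 rose (median -0.83). HIS1-3, a linker histone known to respond to drought, rose by 2.32, averaging 5.91 log2 units in ex3 libraries and 3.59 in ex2 libraries. Of 42 kinesins, motor proteins that include those of the mitotic spindle, 24 fell and 5 rose (median -0.33), and of 13 tubulins 8 fell and 3 rose (median -0.40). Of 17 light-harvesting genes 14 fell and 1 rose (median -1.12), the exception being LHCB4.3 at 1.18. The share of rises among tubulins was near that of all genes. In Moj, with the doubted library, the medians were -0.62 for histones, -0.36 for kinesins, -0.30 for tubulins and -0.69 for light-harvesting genes.

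Among wall genes, 7 of 12 laccases rose and 2 fell (median 1.27), with LAC5 at 2.92, while 12 of 21 expansins fell and 2 rose (median -0.44), with EXPA6 at -1.66 and EXLA1 at 1.12. Of 62 NAC factors 27 rose and 4 fell (median 0.22), NAC019, a stress and senescence regulator, by 2.47. Of 59 WRKY factors 22 rose and 9 fell (median 0.27), with WRKY12 at 1.33 and the defence regulator WRKY46 at -1.01. The share of falls among NAC and WRKY factors was below that of all genes (24%). Of 26 aquaporins 13 rose and 6 fell (median 0.33): NIP5;1, a boric acid channel, rose by 1.64 and the water channel gene PIP2;8 fell by 1.51.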
